A study of Mus musculus with 4 samples.

Results

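The 9 intermediate filament genes described here, Nes, Vim, Gfap, Ina, Nefl, Nefm, Krt8, Krt18 and Krt19, were taken by gene symbol, and all 14 probe sets that the platform annotation paired with 1 of these symbols alone were used, out of 12422 probe sets and 8251 genes with a single symbol. Mouse cells were measured on 4 Affymetrix MG_U74Av2 expression arrays, 1 sample per array. The neurosphere array came from E13.5 mouse telencephalon, whose stem and progenitor cells form free-floating spheres in culture, grown in DMEM and F12 medium with FGF2. Its label lists astrocytes, glia and oligodendrocytes as contaminating cells, and gives no strain. The embryoid body arrays, titled aggregation and suspension, came from R1 cells, an established mouse embryonic stem (ES) cell line, kept unattached for 48 hours. The adherent array came from R1 cells on gelatin under standard growth conditions. All 3 R1 cultures had DMEM with LIF, the cytokine that keeps ES cells undifferentiated, and beta-mercaptoethanol. The embryoid body arrays share a sample identifier and are counted as 2 replicates of a group, although separate cultures are not stated. Their spread may be technical, or may include what their titles distinguish. Neurospheres and adherent cells had no replicates, and precision is limited by this number of arrays.

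Intermediate filaments are rope-like cytoskeletal polymers whose subunits differ by cell type. Nestin, encoded by Nes, is the filament protein of neural stem cells and assembles together with vimentin (Vim), the filament protein of mesenchymal and many undifferentiated cells. Glial fibrillary acidic protein (Gfap) is that of astrocytes, and alpha-internexin (Ina) and the light and medium neurofilament subunits (Nefl, Nefm) are those of neurons. Keratins are obligate pairs of a type I and a type II chain: Krt8 is the type II and Krt18 and Krt19 are the type I chains of simple epithelia and of the trophoblast, which surrounds the embryo.

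Promoter sequences from RefSeq (build GRCm38.p6) were matched for 6 of the 9 genes, running from 250 bases before to 50 bases after the annotated start. Those of the 3 genes that passed the test in neurospheres, Nes, Ina and Krt8, are shown together with that of Krt18, the keratin partner and neighbour of Krt8. No protein-coding gene lies between Krt8 and Krt18 on chromosome 15 in the RefSeq gene table. Capitals mark matches to 3 promoter motifs, searched on both strands with overlaps allowed. The letters searched were TATAAA for the TATA motif. Those of the second motif were CCAAT. The GC box was searched as GGGCGG.
Nes, chr3:87970843-87971142, plus strand: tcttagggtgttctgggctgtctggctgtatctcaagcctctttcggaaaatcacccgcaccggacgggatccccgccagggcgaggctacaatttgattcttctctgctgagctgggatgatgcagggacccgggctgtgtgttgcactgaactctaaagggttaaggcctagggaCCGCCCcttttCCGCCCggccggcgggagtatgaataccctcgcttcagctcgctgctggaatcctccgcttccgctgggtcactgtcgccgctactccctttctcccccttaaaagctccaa
Ina, chr19:47014431-47014730, plus strand: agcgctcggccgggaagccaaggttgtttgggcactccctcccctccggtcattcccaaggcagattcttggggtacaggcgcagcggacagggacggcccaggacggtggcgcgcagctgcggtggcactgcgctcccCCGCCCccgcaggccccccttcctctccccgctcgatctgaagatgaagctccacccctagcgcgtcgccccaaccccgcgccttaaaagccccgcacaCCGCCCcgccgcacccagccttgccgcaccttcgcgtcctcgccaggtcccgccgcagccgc
Krt8, chr15:102004293-102004592, minus strand: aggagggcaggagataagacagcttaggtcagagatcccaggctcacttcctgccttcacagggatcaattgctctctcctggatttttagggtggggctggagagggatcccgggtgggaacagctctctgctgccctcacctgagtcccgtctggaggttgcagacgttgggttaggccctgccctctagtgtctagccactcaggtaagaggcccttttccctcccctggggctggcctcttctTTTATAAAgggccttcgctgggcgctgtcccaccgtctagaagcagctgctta
Krt18, chr15:102027966-102028265, plus strand: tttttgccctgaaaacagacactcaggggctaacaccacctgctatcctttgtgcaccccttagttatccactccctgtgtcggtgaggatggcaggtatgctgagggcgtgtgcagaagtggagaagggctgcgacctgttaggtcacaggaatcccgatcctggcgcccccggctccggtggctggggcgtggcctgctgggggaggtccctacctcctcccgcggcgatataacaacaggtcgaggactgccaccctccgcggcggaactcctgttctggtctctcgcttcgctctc
The Nes and Ina windows each held 2 GC boxes and no match to the other motifs. In Krt8 a single stretch matched the TATA motif on both strands, starting 3 bases before the annotated start. The Krt18 window held none of the 3 motifs. Of 32851 promoters of the same length, 35.7% held a GC box, 13.6% held the TATA motif and 37.4% held the CCAAT motif. G and C made up 71.7% of the Ina window, 61.3% of Krt18, 58.7% of Nes and 58.0% of Krt8, against a median of 52.7% over all promoters. These matches describe the letters alone. The arrays measured no binding or promoter activity.

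The deposited values are linear MAS5 signals, each a summary over the probes of a probe set. The arrays were deposited on different scales. Trimmed means were 29.5 for neurospheres and 32.5 for aggregation, against 1485 for suspension and 1490 for adherent cells. This split separates the embryoid body arrays, whose spread the tests use, and also neurospheres from adherent cells. Its part in the differences was not tested. Each array was rescaled to a trimmed mean of 500. All signals below are on this scale and can be compared across arrays for the same probe set only. The array median after rescaling was 242 in neurospheres, 225 and 236 in the embryoid bodies and 178 in adherent cells. The 10th percentile was 33.8, 29.5, 33.7 and 17.4 in the same order, and no detection calls were used, so a signal near these values was not told apart from background. Of the 14 probe sets, 8 from 6 genes reached the array median on at least 1 array and could be tested. The brighter Gfap and the dimmer Krt18 probe sets did so through neurospheres alone, and Krt8 and the dimmer Ina probe set through R1 arrays alone, so the filter itself favoured a difference for these. Nefl, Nefm and Krt19 did not reach it. As a check of the labels, the summed signal of 14 pluripotency markers was 2460 in neurospheres, 74593 and 85754 in the embryoid bodies and 76184 in adherent cells. That of the 12 neural progenitor markers on the array was 64202, against 3078, 2880 and 1893. Fabp7 (41867) and Bcan (10905) made up most of the neurosphere sum. In neurospheres 6 of the 11 tested markers rose, against 8.20% of all features, and Msi1 did not pass (0.37, limma adjusted p = 0.764). Of the risers, Fabp7, Bcan, Ptprz1 and Hes5 reached the array median through neurospheres alone, so the filter favoured a rise for them. Of the 12, Pax6 did not reach the median of any array.

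Nes had a signal of 3945 in neurospheres, against 424 for aggregation, 52.5 for suspension and 289 for adherent R1 cells. The neurosphere array stood 9.30-fold above the highest R1 array, and the R1 arrays themselves spanned an 8.08-fold range. The low suspension value lay at percentile 18.5 of its own array, whereas Nes in neurospheres lay at percentile 97.4. The difference between neurospheres and R1 cells was 3.99 ± 0.66 (SE) on the log2(signal + 32) scale (limma, Benjamini-Hochberg adjusted p = 2.23e-04). For R1, the embryoid body mean and the adherent value were given equal weight. Differences on this scale understate the change of genes with low signal. The moderated SD behind that error was 0.56, drawn mostly from features of like brightness, while the embryoid body arrays of Nes alone had an SD of 1.72. Without the intensity trend in the variance model the Nes call was lost (adjusted p = 0.0815). The second Nes probe set was dim, with 69.3 in neurospheres, 33.0 and 41.7 in the embryoid bodies and 26.0 in adherent cells. It was highest in neurospheres too, but did not reach the array median on any array and was not tested. Of 6843 features tested, 20.1% passed in either direction between neurospheres and R1 cells, 8.20% higher and 11.9% lower, and 32.6% had an unadjusted p under 0.05. Neurospheres exceeded each R1 array by 2-fold or more for 9.18% of features, and Nes was the only tested member among them.

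**Figure D1:**
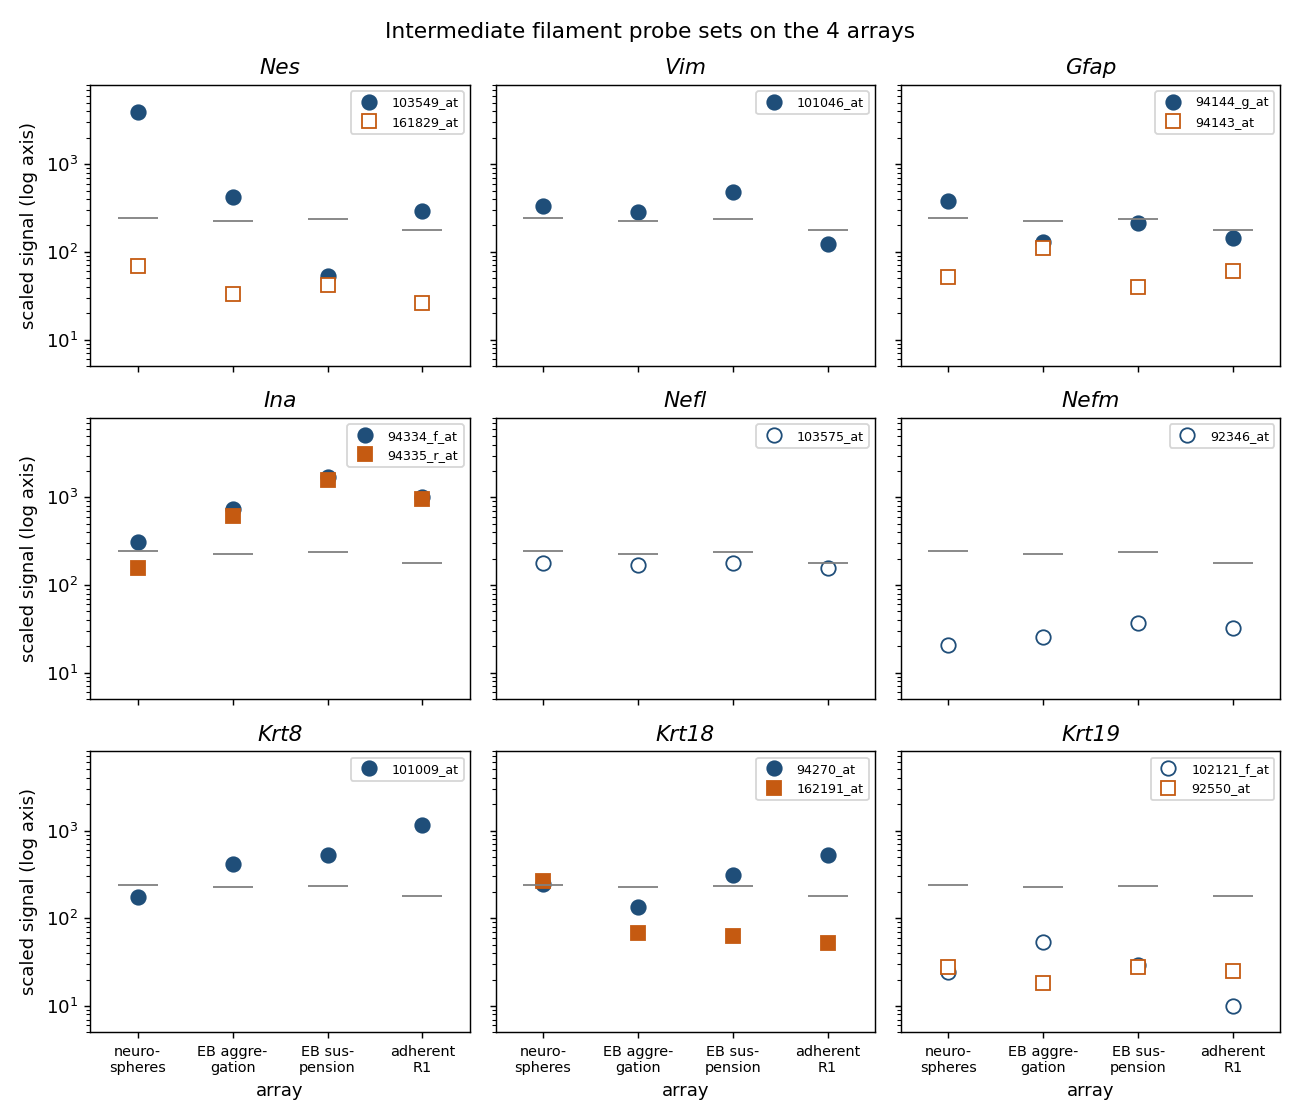
Scaled signal (log axis) of all 14 probe sets on the neurosphere, embryoid body (EB) aggregation, EB suspension and adherent R1 arrays, 1 panel per gene. Blue circles are the brightest probe set of a gene and orange squares a dimmer one; filled symbols reached the signal filter and open ones did not; grey bars mark the array median. Nes stands at 3945 in neurospheres against 52.5 to 424 on the R1 arrays, Ina and Krt8 are lowest in neurospheres, and Nefm and Krt19 stay below the median throughout.

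Vim, the partner of nestin in progenitor filaments, did not follow it. Its single probe set gave 333 in neurospheres, against 285 for aggregation, 480 for suspension and 124 for adherent cells. The neurosphere value lay inside the range of the R1 arrays. The difference from R1 cells was 0.54 ± 0.58 (SE) in log2, with a 95% interval of -0.67 to 1.76 (limma adjusted p = 0.547). That interval includes both no change and a change of more than 2-fold. The interval covers the error of the moderated fit only.

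Gfap was not settled by its probe sets. The brighter of them read 384 in neurospheres, 130 and 215 in the embryoid bodies and 143 in adherent cells, so neurospheres were highest, by 1.79-fold over suspension. This probe set reached the signal filter through neurospheres alone. Its difference of 1.15 ± 0.67 (SE) in log2 did not pass (limma adjusted p = 0.247; 95% interval -0.26 to 2.56). The dimmer probe set had 52.0 in neurospheres, 110 and 39.6 in the embryoid bodies and 60.0 in adherent cells, which puts aggregation highest and neurospheres inside the R1 range. It did not reach the signal filter. Among the other astrocyte markers, 10 of the 11 on the array were tested, and 4 rose and 1 fell in neurospheres, with a median difference of 1.47 against 0.10 over all features. The risers were Aldoc, Mt3, Sparcl1 and Id3, and Gja1 fell. Of all features, 8.20% rose and 11.9% fell. The summed signal of the list was 46258 in neurospheres, 46196 and 29192 in the embryoid bodies and 38045 in adherent cells. Apoe alone gave 22420 in neurospheres, 37420 and 22272 in the embryoid bodies and 27298 in adherent cells. The part of astrocytes in the Gfap signal was not tested, and in bulk RNA more cells of a type cannot be told apart from more RNA per cell.

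Ina, a neuronal filament gene, was lower in neurospheres than in every R1 array. Its brighter probe set had 314 in neurospheres, against 736 for aggregation, 1705 for suspension and 1009 for adherent cells. The difference was -1.67 ± 0.43 (SE) in log2 (limma adjusted p = 0.00944). The other probe set gave 157 in neurospheres, 609 and 1579 in the embryoid bodies and 951 in adherent cells, with the same order of arrays. With every probe set fitted as its own feature, where 19.7% of 8031 passed in either direction, the difference of that probe set was -2.40 ± 0.47 (limma adjusted p = 6.85e-04). Both probe sets carry a class letter (_f_at and _r_at), and whether they detect Ina alone was not tested. Suspension was 2.32-fold above aggregation on the brighter of them. An embryoid body array could be left out only from a fit of 2 groups, with the R1 arrays as a single group. That fit gave Ina an adjusted p of 0.0105 with all arrays and 0.122 without suspension (-1.37). The call was also lost without the signal filter (adjusted p = 0.0605) and without the intensity trend (0.146).

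The neurofilament subunit genes did not pass or were not tested. Nefl had 178 in neurospheres, 171 and 180 in the embryoid bodies and 154 in adherent cells, so all arrays lay within 1.17-fold of each other and below their medians. Nefm had 20.5 in neurospheres, 25.4 and 36.6 in the embryoid bodies and 32.6 in adherent cells, between percentiles 4.12 and 20.2 of the arrays. Nefm was lowest in neurospheres, and neither gene was tested. Nefh, the heavy neurofilament subunit, had 62.2 in neurospheres, 288 and 249 in the embryoid bodies and 356 in adherent cells, and its difference of -1.86 ± 0.65 did not pass (limma adjusted p = 0.0511). Of the 16 neuron markers on the array, 10 were tested, and 1 (Gap43) rose and 1 (Stmn2) fell, against 8.20% and 11.9% of all features. The median difference of the list was 1.41, against 0.10 over all features. Fitted as their own features, the other Stmn2 probe sets lay at 1.36 and -3.26. The summed signal of the neuron markers was 10478 in neurospheres, 8032 and 7860 in the embryoid bodies and 6084 in adherent cells. Tubb3 gave 5991 of it in neurospheres, 4485 and 4326 in the embryoid bodies and 3069 in adherent cells. Fitted as their own features, its probe sets disagreed, at 0.70 and -1.48 (limma adjusted p = 0.065 and 0.041). In that fit 19.7% of features passed in either direction. The synaptic gene Snap25 stayed below the median of every array.

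Krt8 was lowest in neurospheres and highest in adherent R1 cells. It read 176 in neurospheres, against 419.8 for aggregation, 521 for suspension and 1162 for adherent cells. The difference between neurospheres and R1 cells was -1.89 ± 0.45 (SE) in log2 (limma adjusted p = 0.00522). Neurospheres were at least 2-fold below each R1 array for Krt8 and Ina, as were 9.37% of all features. In the fit of 2 groups Krt8 had an adjusted p of 0.039 with all arrays and 0.0538 without suspension (-1.82). The call was also lost without the intensity trend (0.0605). Against adherent cells alone the difference was -2.52 ± 0.54 (limma adjusted p = 0.00301), where 17.4% of features passed in either direction. Against embryoid bodies alone it was -1.27 ± 0.47 and did not pass (limma adjusted p = 0.0731; -1.33 and 0.0408 with scaling by the array median), where 17.3% of features passed in either direction. Nes and Ina passed in both of these comparisons, with differences of 4.34 and -1.74 against embryoid bodies and 3.63 and -1.59 against adherent cells. With 1 embryoid body array left out, the Nes difference from the other was 5.56 (suspension) or 3.12 (aggregation), with no test. Without the signal filter, Ina was lost in both comparisons (adjusted p = 0.0692 against embryoid bodies and 0.134 against adherent cells) and Nes against adherent cells (0.062). Ina against adherent cells was also lost with 100 added before log2 (0.0557) and after quantile normalization (0.0676), and without the intensity trend neither gene passed in either comparison.

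The probe sets of Krt18, the pairing partner of Krt8, disagreed. The brighter of them had 244 in neurospheres, against 136 for aggregation, 311 for suspension and 529.9 for adherent cells. It shared the adherent maximum of Krt8, but neurospheres lay inside the R1 range, and the difference of -0.41 ± 0.60 (SE) did not pass (limma adjusted p = 0.670; 95% interval -1.67 to 0.85). The dimmer probe set had 267 in neurospheres, 68.8 and 62.0 in the embryoid bodies and 52.7 in adherent cells, and so was 3.88-fold above the highest R1 array. Fitted as its own feature it lay at 1.72 ± 0.98 and did not pass (limma adjusted p = 0.238). Krt19 was dim on both probe sets. The brighter of them gave 24.4 in neurospheres, 53.0 and 29.2 in the embryoid bodies and 9.94 in adherent cells, and the other gave 27.8 in neurospheres, 18.3 and 28.1 in the embryoid bodies and 25.0 in adherent cells. The probe sets differed in the place of aggregation, highest on the brighter and lowest on the other, and stayed at or below percentile 20.3 of every array.

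**Figure D2:**
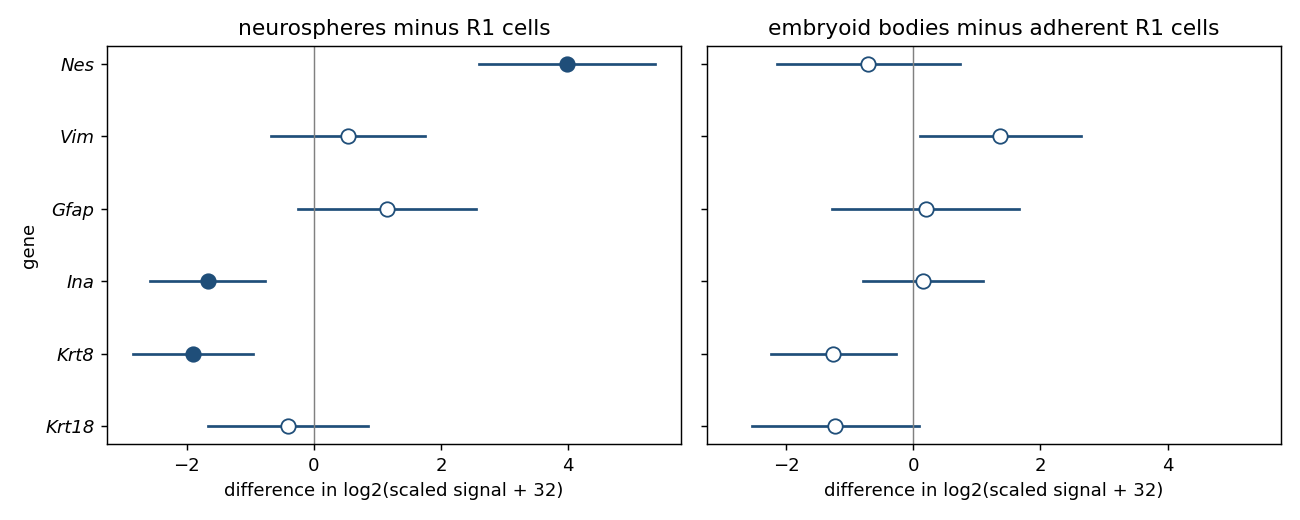
Differences in log2(scaled signal + 32) of the 6 tested filament genes, with neurospheres minus R1 cells on the left and embryoid bodies minus adherent R1 cells on the right; lines are 95% intervals of limma's moderated fit and filled points have an adjusted p under 0.05. Nes (3.99), Ina (-1.67) and Krt8 (-1.89) are filled on the left and no gene is filled on the right.

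Culture form within R1 cells was the subject of the next comparison, embryoid bodies against adherent cells. By limma 0 of the 6 tested members passed, while 0.351% of all features did, 0.263% as higher and 0.0877% as lower in embryoid bodies. Without adjustment 2 members, Krt8 and Vim, had a p under 0.05, as had 14.4% of all features. Krt8 averaged 470.4 ± 71.6 in embryoid bodies and 1162 in adherent cells (SD, n = 2 embryoid body arrays), a difference of -1.26 ± 0.47 in log2 (limma adjusted p = 0.236). Vim averaged 382 ± 138 in embryoid bodies and 124 in adherent cells, a difference of 1.37 ± 0.60 (limma adjusted p = 0.312). Both embryoid body arrays were at least 2-fold below the adherent array for Krt8, as were 2.88% of features, and at least 2-fold above it for Vim, as were 6.15%. The brighter Krt18 probe set differed by -1.23 ± 0.63 (limma adjusted p = 0.383), with the aggregation array lowest. For the brighter Nes, Gfap and Ina probe sets the adherent array lay between the embryoid body arrays, and the differences were -0.71, 0.19 and 0.15. Scaling by the array median in place of the trimmed mean gave a median over all features of -0.25 in log2, against 0.10. With that scaling Krt8 passed as lower in embryoid bodies (-1.62, adjusted p = 0.0298), and Gfap and Ina changed sign (-0.12 and -0.21). That fit also took its variance from the prior alone, so it differed from the main fit in more than scale.

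The embryoid body arrays themselves were compared without a test, as aggregation against suspension. The brighter Nes probe set was 2.43 higher in aggregation in log2. At least 2-fold differences in that direction were seen in 6.25% of features, and in the other direction in 8.02%. The brighter Ina and Krt18 probe sets were lower in aggregation by at least 2-fold, at -1.18 and -1.03. Vim, the brighter Gfap probe set and Krt8 lay at -0.69, -0.61 and -0.29. The dimmer probe sets of 3 genes had the opposite order. Aggregation and suspension read 33.0 and 41.7 for Nes, 110 and 39.6 for Gfap, and 68.8 and 62.0 for Krt18. Thus the brighter Nes probe set was highest in aggregation among the R1 arrays. Ina, Vim and the brighter Gfap probe set were highest in suspension, and Krt8 and the brighter Krt18 probe set in adherent cells. With 1 array each, none of these orders within R1 has a replicate. The aggregation array was also deposited on another scale than the other R1 arrays, and the part of that was not tested.

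Expression patterns most like those of the members were found by the root mean square difference of centred log2 values over the 4 arrays, among 6002 named genes. The nearest to Nes were Cpe (0.35), a peptide-processing carboxypeptidase with a signal of 2909 in neurospheres, 224 and 60.9 in the embryoid bodies and 231 in adherent cells, and Lrrn1 (0.46). For Krt8 they were Cops2 (0.066) and Hells (0.072), for Ina Wwc2 (0.062) and Alpl (0.094), and for Krt18 Tbl1xr1 (0.11) and Ppp2r5a (0.11). For Vim they were C5ar1 (0.039) and Myod1 (0.040), and for Gfap Fmc1 (0.028) and Stx4a (0.040). With only 4 arrays, close matches by this measure are easily found.

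Other intermediate filament genes were counted from a list of 30, of which 23 were on the array and 16 reached the signal filter. In neurospheres 0 rose and 1 fell, with a median difference of 0.46 against 0.10 over all features, of which 8.20% rose and 11.9% fell. Lmnb1, the nuclear lamin B1, was the faller, with 922 in neurospheres, 1778 and 1673 in the embryoid bodies and 3263 in adherent cells (-1.33 ± 0.30, limma adjusted p = 0.00330). In the fit of 2 groups its adjusted p was 0.0449 with all arrays and 0.0741 without aggregation (-1.31). Lmna, lamin A and C, had 513 in neurospheres, 612 and 851 in the embryoid bodies and 1384 in adherent cells (-0.92, limma adjusted p = 0.0974). Lmnb2 lay at -0.35. The epidermal keratin Krt1 (2.44), the keratins Krt20 (1.39), Krt6b (1.36), Krt71 (1.18), Krt17 (0.83), Krt10 (0.59), Krt84 (0.47), Krt6a (0.46) and Krt4 (0.45), and the muscle filament gene Des (1.40) did not pass. Krt13 (-0.70) and Krt12 (-1.04) did not pass on the negative side. Prph, Krt5, Krt7, Krt14, Krt15, Krt16 and Bfsp1 stayed below the array median throughout and were not tested.

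Several genes that link filaments to cell junctions were lower in neurospheres, as Krt8 was. Of 21 filament linker and desmosome genes, 17 were on the array and 12 were tested, and 0 rose and 6 fell in neurospheres. The median difference was -1.16 against 0.10 over all features, of which 8.20% rose and 11.9% fell. Perp, a desmosomal membrane protein, had 58.2 in neurospheres, 706 and 363 in the embryoid bodies and 967 in adherent cells (-3.02 ± 0.52, limma adjusted p = 3.57e-04). Plec, the cytolinker plectin, had 18.6 in neurospheres, 226 and 275 in the embryoid bodies and 427 in adherent cells (limma adjusted p = 0.00745). Jup, the desmosomal plaque protein plakoglobin, had 204 in neurospheres, 843 and 1538 in the embryoid bodies and 1272 in adherent cells (-2.39 ± 0.40, limma adjusted p = 2.95e-04). Plec in neurospheres lay below the 10th percentile of its array, so its signal there was not told apart from background. The size of its difference follows the constant added before log2, at -4.06 with 1, -2.83 with 32 and -1.86 with 100. Pkp2 and Pkp4 of the plakophilin family (-1.97 and -1.40) and the desmosomal cadherin Dsg2 (-1.92) fell as well. Of the 6 fallers, only Pkp4 reached the array median in neurospheres (281). The others reached the signal filter through R1 arrays alone, so the filter itself favoured a fall for them. The fit of 2 groups called 5 of the 6 fallers with all arrays, without Pkp4 (adjusted p = 0.0657). In that fit Dsg2 had an adjusted p of 0.0327 with all arrays and 0.110 without aggregation (-1.78), and Pkp2 had 0.0133 with all arrays and 0.0548 without suspension (-1.91). Without the intensity trend only Perp and Plec of the 6 passed, and Lmnb1 did not (adjusted p = 0.106). Desmoplakin (Dsp), which binds keratin at the desmosome, did not pass (-0.45, adjusted p = 0.605). Flg went the other way, with 472 in neurospheres, 180 and 64.4 in the embryoid bodies and 86.4 in adherent cells. Its difference of 1.95 ± 0.78 did not pass (limma adjusted p = 0.088). None of the 12 passed between embryoid bodies and adherent cells, where 2 had an unadjusted p under 0.05, as had 14.4% of all features.

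**Figure D3:**
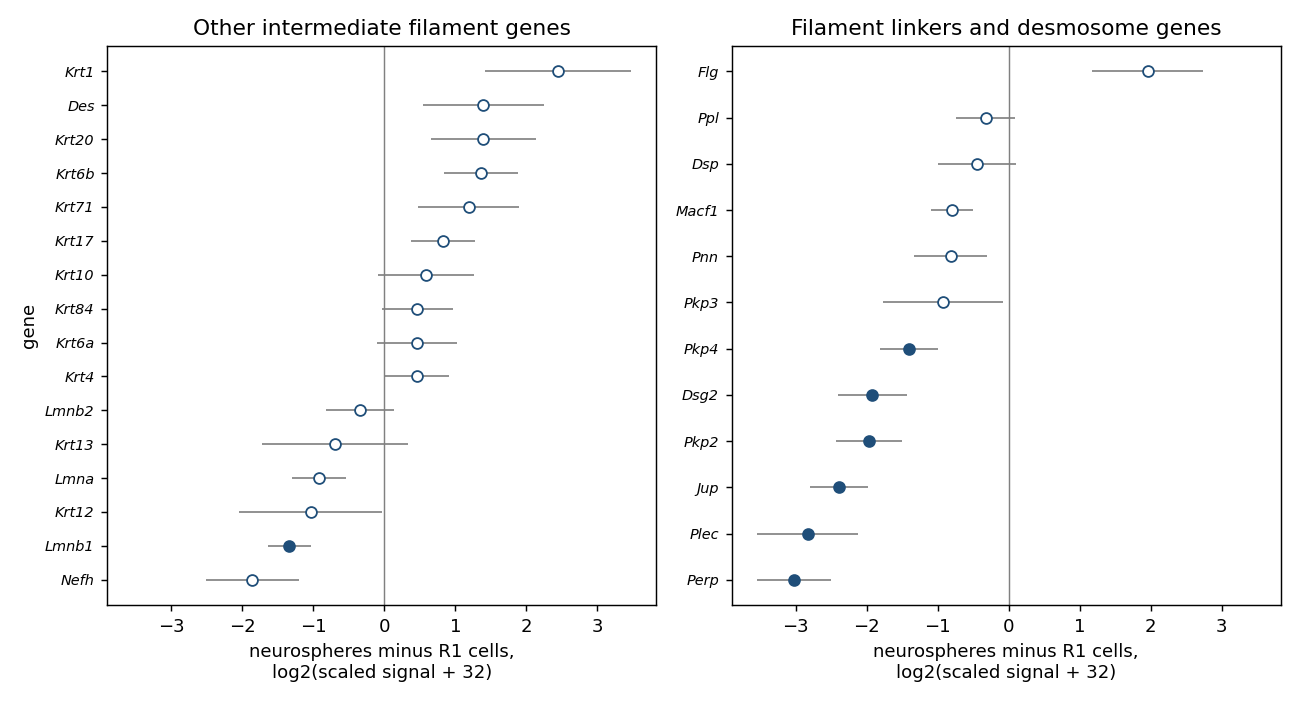
Differences between neurospheres and R1 cells in log2(scaled signal + 32) for the tested genes of 2 lists, other intermediate filament genes on the left and filament linkers and desmosome genes on the right; bars are standard errors of limma's fit and filled points have an adjusted p under 0.05. On the left only Lmnb1 (-1.33) is filled, and on the right Perp, Plec, Jup, Pkp2, Dsg2 and Pkp4 are filled, between -3.02 and -1.40.

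Among 22 kinases and chaperones that act on filaments, 16 were on the array and 13 were tested, and 1 rose and 1 fell in neurospheres (median 0.29). The shares of all features were 8.20% higher and 11.9% lower. Cdk5, a kinase that phosphorylates nestin and neurofilaments, rose by 1.56 ± 0.46 (limma adjusted p = 0.0212), with 1198 in neurospheres, 284 and 535 in the embryoid bodies and 382 in adherent cells. The small heat shock protein gene Hspb8 fell (-1.46 ± 0.42, limma adjusted p = 0.0199). In the fit of 2 groups Cdk5 had an adjusted p of 0.0424 with all arrays and 0.162 without aggregation (1.35). Hspb8 had 0.0438 with all arrays, 0.144 without aggregation and 0.165 without suspension. Neither gene passed without the signal filter (adjusted p = 0.0745 for Cdk5 and 0.0548 for Hspb8) or the intensity trend (0.127 and 0.0941). Cdk1, the mitotic kinase that phosphorylates vimentin and nestin, lay at -0.06.

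Other cell types in which simple keratins or vimentin are expressed were followed by marker lists. Their counts stand beside 8.20% of all features higher and 11.9% lower in neurospheres. Of 16 trophoblast and epithelial markers on the array, 11 were tested, and 0 rose and 5 fell in neurospheres, with a median difference of -1.97. The fallers were Tfap2c, Cldn4, Epcam, Cldn6 and Esrp1, of which Esrp1 was named after its values were seen. All of these fallers reached the signal filter through R1 arrays alone, so the filter itself favoured a fall for them. The trophoblast genes Tpbpa (1.32), Hand1 (0.56), Ascl2 (0.53) and Eomes (-0.88) did not pass, nor did Cdh1 (-0.29) and Cldn7 (-1.97). Cdx2, Elf5 and Gata3 did not reach the signal filter. The summed signal of that list was 3192 in neurospheres, 8694 and 8028 in the embryoid bodies and 6924 in adherent cells, so it moved with Krt8 between neurospheres and R1 but was not highest in adherent cells. Of 9 tested primitive and visceral endoderm markers 0 rose and 1, Lama1, fell, with sums of 4353 in neurospheres, 3419 and 4050 in the embryoid bodies and 5219 in adherent cells. Of 13 tested fibroblast and mesenchyme markers 1, Zeb1, rose and 1, Fn1, fell. The sums of that list were 8296 in neurospheres, 10711 and 10641 in the embryoid bodies and 7226 in adherent cells. Col1a2 was higher in embryoid bodies than in adherent cells (3062 and 3428 against 1123, limma adjusted p = 0.0294), as were 0.263% of all features. That call was lost without the signal filter and without the intensity trend, and its probe set carries a class letter (_r_at). Of 6 tested oligodendrocyte markers 2, Nkx2-2 and Sox10, rose and 0 fell, with sums of 3594 in neurospheres, 1851 and 2193 in the embryoid bodies and 1127 in adherent cells. Mbp (1.18), Pdgfra (0.96), Mag (-0.08) and Mobp (-1.15) did not pass, and Mog and Cnp were not tested. Another Pdgfra probe set, fitted as its own feature, lay at 3.24. The part of these cell types in the filament values was not tested.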

How the data were processed

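Per the submitters' processing notes, the authors computed the deposited signal intensity values with MAS5. The sources used here do not give its version, scaling target or settings. Of 12488 probe sets, 66 controls were left out. In the platform annotation 10833 had 1 gene symbol, 396 had several and 1193 had none, and 10817 matched the RefSeq gene table by gene identifier. Arrays were brought to a common trimmed mean of 500 (2% off each end, controls left out), and 32 was added before log2. Probe sets at or above the array median on at least 1 array were kept (8031). This filter favours a difference for genes that reached it in neurospheres alone or in R1 arrays alone. The brightest probe set per gene was used, which gave 6843 features. limma 3.58.1 (R 4.3.3) was fitted to all 4 arrays in 3 groups with an intensity trend. The embryoid body pair supplied its 1 residual degree of freedom, and the prior gave 17.3. With median scaling and in both fits without an embryoid body array the prior was infinite, so a gene's own spread did not enter. Neurospheres and adherent cells, with 1 array each, were taken to vary as the embryoid body pair did. P-values were two-sided, adjusted over all features (Benjamini-Hochberg, threshold 0.05). The code was tested on simulated data. The p-values measure the spread between the 2 embryoid body arrays, which may be technical.

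The members, gene lists and tests were chosen with earlier results of these data known. The rule for named genes took all members, all other filament genes on the array, up to 4 called genes of each list by size (with none called, the 2 brightest), and the 2 genes nearest in pattern to each tested member. Dsg2, Pkp4, Gja1, Esrp1, Dsp, Flg, Tubb3, Apoe, Snap25, Cdk1, Pax6 and Msi1 fall outside it and were named after their values were seen. So were the trophoblast, epithelial and oligodendrocyte markers named as not passed or not tested. Alternatives were another value added, no filter, other scalings, no intensity trend, other choices of probe set, a fit of 2 groups, and that fit with each embryoid body array left out.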

Additional observations from a re-analysis of the deposited data

How the results depend on the processing

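Values were recomputed under each alternative. Between neurospheres and R1 cells, 1377 features passed, while 464 did without the intensity trend, 947 in a fit of 2 groups, and 669 to 780 in that fit without an embryoid body array. Of the members 3 passed, 0 without the trend (4 at an unadjusted p under 0.05), 3 in the fit of 2 groups and 1 to 3 in that fit without an embryoid body array. Between embryoid bodies and adherent cells, 24 features passed, 0 without the filter or without the trend (1109 and 708 at an unadjusted p under 0.05), 14 after quantile normalization, 403 with median scaling, 2 with mean probe sets and 4 with probe sets without a class letter, and median scaling called 1 member, Krt8. Here and below, counts without an embryoid body array come from the fit of 2 groups. Against embryoid bodies, 1185 features and 2 members passed, 172 features and 0 members without the trend, with 3 members under median scaling, and 1 member without the filter or with probe sets without a class letter. Against adherent cells, 1190 features and 3 members passed, 105 and 0 without the trend, and 1 member, Krt8, without the filter. The share of called features that were higher was 40.7% against R1 cells and 28.5% with median scaling, 38.9% and 19.3% against adherent cells, and 75.0%, 8.68% and, after quantile normalization, 85.7% for embryoid bodies against adherent cells. Other filament genes called numbered 1 of 16, with 2 after adding 1 or after quantile normalization, 3 with median scaling, 0 without the trend and 0 to 1 without an embryoid body array. Linker genes numbered 6, with 2 without the trend, 5 in the fit of 2 groups and 4 in it without either array. Kinase and chaperone genes numbered 2, with 0 without the filter or the trend and 0 to 1 without an embryoid body array. Aggregation and suspension were at least 2-fold apart in 977 features, and in 606 with 100 added. Signs turned for Gfap (-0.14 after quantile normalization, -0.12 with median scaling) and Ina (-0.21 with median scaling) in embryoid bodies against adherent cells. With 1 embryoid body array left out they turned in that comparison, without a test, for Nes (0.51), Gfap (-0.11) and Ina (-0.44), and in neurospheres against embryoid bodies for Vim (0.20) and Krt18 (-0.31). They also turned for Krt18 with the mean of its probe sets, to 0.65 against R1 cells and 0.40 against adherent cells. The causes were not tested. No paired analysis was possible because the labels give no replicate numbers that pair arrays across groups. In comparisons between embryoid bodies and 1 other array, leaving out an embryoid body array leaves no residual degree of freedom, so those differences have no test. Signal close to background limits Nefm, Krt19 and the dimmer Nes and Gfap probe sets.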
